A study of Mus musculus with 36 samples.

Results

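Collagens outside the cartilage set were 37 of the 21887 protein-coding mouse genes of chromosomes 1 to 19, X and Y that were examined. They were taken by symbol, as every gene named Col, a number, a and a number, leaving out the 7 collagens of cartilage (Col2a1, Col9a1, Col9a2, Col9a3, Col10a1, Col11a1 and Col11a2). ATAC-seq, an assay that reads where a transposase can reach the DNA, had been run on autopod (hand and foot) chondrocytes, per the labels, taken from E15.5 embryos of the FVB/NJ strain. All 36 libraries shared that strain and stage, with no other allele and no agent named. They fall into 12 groups of 3 libraries: the metacarpal, the metatarsal, the hand phalanges and the foot phalanges, each of digits I, III and V. The metacarpals and metatarsals are together called metapodials here. A library joined right and left elements of 3 to 5 littermate embryos, 6 to 10 limbs in all, dissected by hand. No cell sort is given in the sources used here, so other cells of the element can contribute, and in such bulk tissue fewer cells with an open site and less open chromatin per cell cannot be told apart. One peak list was analysed for each group, called on its pooled libraries and labelled IDR (irreproducible discovery rate), a filter by agreement between replicates. The measurement is therefore the number of called regions, which are peaks of all 12 lists merged where they overlap by at least 1 bp, in the gene body and 10 kb to each side.

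Collagens are extracellular proteins whose chains wind into a triple helix of glycine-led repeats. Fibrillar collagens build the cables of bone, tendon, skin and cartilage, FACIT collagens (fibril-associated with interrupted triple helices) sit on the surface of those fibrils, network collagens form basement membranes and sheets, and transmembrane and multiplexin collagens act at cell surfaces and in vessel walls. In a developing digit, cartilage cells are known for type II, IX and XI collagen, while type I, III, V, XII and XIV collagen mark the perichondrium, tendon and loose connective tissue round the cartilage. Open chromatin at a gene is not its expression, which was not analysed here.

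Gene starts and upstream sequence were taken from RefSeq (GRCm38.p6, whose coordinates are those of mm10). Of the 37 genes, 30 matched an entry. The genes without one are Col1a1, Col5a2, Col4a3, Col12a1, Col14a1, Col22a1 and Col26a1. For these both gene ends were used in place of the start. The 250 bases before the start are shown for 5 genes on which the results below turn, because peaks of all 12 lists covered each of these windows in full. Capitals mark matches to 6 motifs searched on both strands, namely the CCAAT box, the TATA-box word TATAAA, the GC-box word GGGCGG, the SOX-type word AACAAT, the RUNX-type word TGTGGT and the AP-1 word TGANTCA.
Col1a2, chr6:4505368-4505617, plus strand: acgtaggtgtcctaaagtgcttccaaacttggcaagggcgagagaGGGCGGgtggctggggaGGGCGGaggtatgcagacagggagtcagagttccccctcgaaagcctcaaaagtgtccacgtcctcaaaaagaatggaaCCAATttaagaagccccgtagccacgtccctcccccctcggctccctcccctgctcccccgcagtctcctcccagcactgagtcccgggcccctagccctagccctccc
Col3a1, chr1:45311288-45311537, plus strand: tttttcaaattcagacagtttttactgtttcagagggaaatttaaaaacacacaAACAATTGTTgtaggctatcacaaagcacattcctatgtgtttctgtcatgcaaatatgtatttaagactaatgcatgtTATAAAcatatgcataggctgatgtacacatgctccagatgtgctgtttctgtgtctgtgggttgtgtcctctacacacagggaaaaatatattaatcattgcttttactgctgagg
Col4a1, chr8:11312827-11313076, minus strand: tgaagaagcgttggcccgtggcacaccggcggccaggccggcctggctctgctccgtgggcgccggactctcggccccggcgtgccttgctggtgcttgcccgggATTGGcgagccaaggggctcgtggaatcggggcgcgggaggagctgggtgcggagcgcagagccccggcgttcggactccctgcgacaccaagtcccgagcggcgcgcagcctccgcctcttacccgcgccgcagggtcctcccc
Col24a1, chr3:145292222-145292471, plus strand: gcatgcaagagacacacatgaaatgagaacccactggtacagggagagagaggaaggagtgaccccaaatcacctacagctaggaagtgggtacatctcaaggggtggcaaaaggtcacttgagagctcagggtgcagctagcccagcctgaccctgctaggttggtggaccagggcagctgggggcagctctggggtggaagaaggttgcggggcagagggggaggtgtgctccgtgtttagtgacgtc
Col27a1, chr4:63215162-63215411, plus strand: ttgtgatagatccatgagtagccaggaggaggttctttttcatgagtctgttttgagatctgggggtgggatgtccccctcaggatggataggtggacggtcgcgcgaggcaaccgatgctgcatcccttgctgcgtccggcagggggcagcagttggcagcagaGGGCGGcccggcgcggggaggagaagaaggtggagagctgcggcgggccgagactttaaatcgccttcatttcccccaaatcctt

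The 5 windows differ in composition. Bases G and C made up 35.2% of the window of Col3a1 (the collagen of reticular and early fibrils), 58.0% for Col24a1, 59.6% for Col27a1, 62.0% for Col1a2 and 74.4% for Col4a1. The median was 59.4% over 32 windows of the collagens (2 genes have more than 1 start) and 55.6% over 21263 windows of all protein-coding genes. Col1a2 held a CCAAT box from 109 to 105 bases before the start and GGGCGG from 205 to 200 and from 188 to 183 bases. Col3a1 held TATAAA from 117 to 112 bases before the start, and AACAAT on both strands, from 196 to 191 and from 192 to 187 bases, which overlap each other. Col4a1 held CCAAT on the other strand from 145 to 141 bases, Col27a1 held GGGCGG from 85 to 80 bases, and none of the 6 motifs lay in the Col24a1 window. Across windows, GGGCGG occurred in 59.4% of those of the collagens and in 42.6% of all, CCAAT in 34.4% and 35.4%, TATAAA in 9.38% and 11.6%, TGTGGT in 9.38% and 12.4%, AACAAT in 3.12% and 8.22%, and TGANTCA in 3.12% and 6.13%. A match is a string of letters and says nothing about binding.

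The lists held 36194 to 53276 peaks, which merged into 65543 regions, and 17568 genes had at least 1 region in their window. Depth per library is not known from the files. Metacarpal digit III had the longest list, and the 4 digit III lists, at 44289 to 53276 peaks, were longer than all but 1 of the lists of the other digits, at 36194 to 46582. All 10 chondrocyte markers had a region and 8 of them had one in every list (Sox9, Acan, Matn3, Hapln1, Col2a1, Comp, Snorc and Cnmd). Markers of other cells also had regions, in 8 of 8 perichondrium and osteoblast genes, 4 of 5 tendon genes, 6 of 6 muscle genes, 7 of 8 endothelial genes, 5 of 5 blood genes, 3 of 5 epidermal genes and 4 of 4 nerve genes. The markers with no region were Krt5, Krt14, Emcn and Tnmd, while others of the same lists had one in every list: Tfap2a and Perp of epidermis, Pecam1, Kdr, Tek, Erg and Sox17 of endothelium, and Scx, Mkx and Egr1 of tendon. Of all 21887 genes, 17568 had a region, so having one does not by itself mark a cell type. In 63.6% of all genes a region called in every list lay within 1 kb of the start, or of an end where no start was given.

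Of the 37 collagens, 36 had at least 1 open region, with 238 regions in all. Col6a4, a chain of beaded filament collagen on chromosome 9, had none in any list. Regions called in all 12 lists numbered 77 (32.4%), against 35.6% of all 65543 regions, and regions called in 1 list numbered 40 (16.8%), against 17.0%. Both shares lie near the background. The collagens are long genes, with a median of 122 kb against 17.2 kb for all genes. They had a median of 6 regions a gene. Their median density was 3.9 regions per 100 kb of window, against 4.14 for all genes. Among genes with a region the medians were 4.04 and 4.98. The 7 cartilage collagens, shorter at a median of 27.8 kb, had a median density of 8.14. Among the 37 the highest value was 14.7 per 100 kb, at Col8a2.

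**Figure D1:**
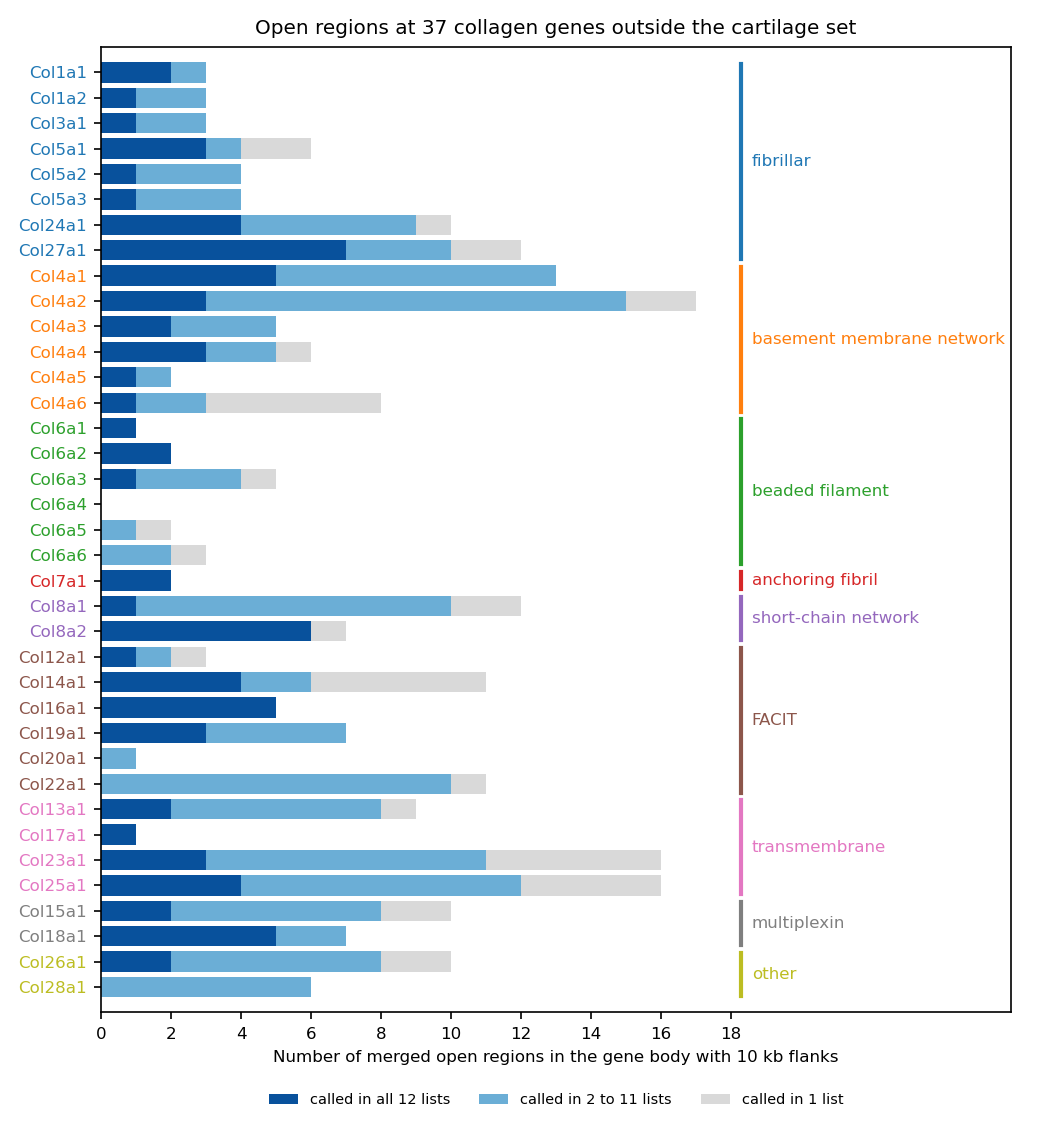
Merged open regions per collagen gene (horizontal axis, number of regions in the gene body with 10 kb flanks), split into those called in all 12 lists, in 2 to 11 lists and in 1 list. Genes are grouped by class; Col4a2 has 17 regions, Col6a4 has none, and all 5 regions of Col16a1 were called in all lists.

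By position, the 77 regions called in all lists lay at a start or gene end (26), inside gene bodies (39) and in flanks (12). Of 30 regions within 1 kb of a start (or gene end where no start was matched), 26 (86.7%) were called in all lists and none in 1 list. Of 182 regions inside gene bodies, 39 (21.4%) were called in all lists and 37 (20.3%) in 1 list, and of 26 regions in the flanks, 12 (46.2%) were called in all lists. Regions at starts were also wider, with a median of 4451 bp against 2206 bp inside genes. These shares and widths by position were not counted over all regions, so they are not read as particular to the collagens. In total 29 of 37 genes had a start or end region called in all lists, against 63.6% of all protein-coding genes. The other genes were Col5a3, whose start region was called in 8 lists, Col6a4, and 6 genes with no region there: Col6a5, Col6a6, Col17a1, Col20a1, Col22a1 and Col28a1. The 29 genes are counted by merged region. A peak of the list itself lay within 1 kb of the start in 10 lists for Col4a6 and in 11 for Col7a1. Col17a1, a hemidesmosome protein of skin, had its 1 region inside the gene, called in every list; merged over lists it spans 12442 bp, with 2.6 to 12.1 kb covered per list.

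Fibrillar collagens had 45 regions at 8 genes, 20 of them (44.4%) in all lists, and 24 to 33 called per list. Col1a1 and Col1a2, which encode the chains of type I collagen of bone, tendon and skin, had 3 regions each. Col1a1 (chr11:94936224-94953042) had 2 called regions in metacarpal I and metatarsal III and 3 in each of the other 10 lists. Its covered length was 6.8 kb in the lowest list, 11.1 kb at the median and 14.4 kb in the highest. Col1a2 (chr6:4505618-4541543) had 1 region in every list, at its start. A further region, chr6:4536644-4541476, was called in metacarpal I and hand phalanges I only. Another, chr6:4544356-4546913, was called in metacarpal III and hand phalanges V only. These lists are all of the forelimb (exact permutation p = 0.125 between limbs for the count of regions, adjusted p = 1.0). The covered length of Col1a2 was 3.7 kb in the lowest list, 4.2 kb at the median and 9.4 kb in the highest. The start peak of Col1a2 ranked within the strongest 14.5% to 27.6% of its list by the authors' −log10 p, with a median of 19.5%. Col5a1 and Col5a2, whose chains are built into type I fibrils and set their width, had start or end regions in all lists. Col5a1 had 3 called regions in 9 lists, 4 in metacarpal V and metatarsal I and 5 in foot phalanges I, and its start peak had a median rank of 13.3%. Col5a2 had 4 regions, of which chr1:45385379-45386877 was called in 5 of 6 hindlimb lists and in 0 of 6 forelimb lists.

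Col27a1, a fibrillar collagen known from the growth plate, had the largest covered length of the 37 genes, a median of 46.2 kb of its window (31.5 to 58.0 kb over lists). It had 12 regions, 7 of them in all lists, and 3 were wider than 10 kb. At its start, where the window shown above lies, one region reached over chr4:63211472-63223276, 11805 bp, in the merged set, and the next, just beyond it, reached over 12355 bp. That window precedes a RefSeq start inside the gene body counted here, which begins at chr4:63214009. Col24a1, a fibrillar collagen known from developing bone, had 10 regions over a gene of 259.5 kb, 4 of them in all lists. Those 4 lie, by their centres, at 0.9, 99.4, 178.6 and 267.3 kb from the start.

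Basement membrane collagens had 46 regions at 6 genes, 12 (26.1%) in all lists and 17 to 35 per list. They lie head to head in pairs, and each pair shared its start region. Col4a1 and Col4a2, the chains of nearly every basement membrane, overlap by 85 bp and shared chr8:11311180-11317268, called in 12 lists, which holds the Col4a1 window shown above. Its peak ranked at a median of 12.2% from the top, from 7.88% to 26.7%. Col4a3 and Col4a4, chains of kidney and inner-ear basement membranes, overlap by 114 bp and shared chr1:82586024-82588088 in 12 lists, at a median rank of 37.6%. Col4a5 and Col4a6 on the X chromosome lie 1274 bp apart and shared chrX:141473217-141476261 in 12 lists, with a peak within 1 kb of the Col4a6 start in 10. Counts of the members of such a pair are therefore not independent. With flanks and the shared start region, Col4a1 had 13 regions, 9 of them inside the gene, and Col4a2 had 17, 15 of them inside. Col4a5 had 2 over 213.9 kb, 1 of them at its start. Of the 8 regions of Col4a6, 5 were called in 1 list.

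Beaded filament collagens had 13 regions, 4 (30.8%) in all lists. Col6a1, Col6a2 and Col6a3, the chains of the type VI collagen that surrounds chondrocytes and other cells, had a start region in every list. Col6a1 had 1 region, chr10:76720605-76737289, the widest of the 238 at 16685 bp. Col6a2 had 2 regions in every list. Col6a3 had 4 called regions in metacarpal I and III, 3 in metatarsal I and III, 1 in metacarpal V and 2 in each of the other 7 lists. Col6a5 was called in metacarpal III (2 regions) and metatarsal I (1) and had 0 in 10 lists, and Col6a6 had 1 or 2 regions a list. Col7a1, which forms the anchoring fibrils of skin, had 2 regions in every list, both overlapping neighbouring genes.

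The short-chain collagens Col8a1 and Col8a2, known from vessel walls and the cornea, had 19 regions. Col8a2 had 6 regions in 11 lists and 7 in foot phalanges V. Of the 12 regions of Col8a1, 1 was called in all lists. FACIT collagens had 38 regions at 6 genes, 13 (34.2%) in all lists. Col12a1, of perichondrium and tendon, had the second highest start or end peak by median rank, 6.5% from the top (4.68% to 11.3%), with a median fold enrichment of 57.0 in the authors' lists, and 1 or 2 regions a list. Col14a1, its relative of tendon and skin, had 11 regions, 4 in all lists and 5 in 1 list. Col16a1 had all 5 of its regions called in every list, while the length covered ranged from 11.9 to 28.5 kb. Col20a1 had 1 region, called in 6 lists, and Col22a1, a collagen of tissue junctions such as that of muscle and tendon, had 11 regions over 355.2 kb with none in all lists.

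Transmembrane collagens had 42 regions at 4 genes, 10 (23.8%) in all lists and 10 (23.8%) in 1 list. Col25a1, known from motor nerve development, had the strongest start peak of the 30 genes with a peak at a start or end. It ranked 3.45% to 8.65% from the top, with a median of 5.09% and a median fold enrichment of 59.6 in the authors' lists. It had 16 regions over 419.5 kb, 4 of them in all lists. Col23a1 likewise had 16 regions, 3 of them in all lists. The multiplexins Col15a1 and Col18a1, of basement membrane zones and vessels, had 17 regions. Col15a1 had a start peak at a median rank of 12.5% and 2 to 7 called regions, while Col18a1 had 5 to 7, 5 of them in all lists. Col26a1 and Col28a1 had 16 regions, 2 of them in all lists, and Col28a1 ranged from 0 in foot phalanges V to 5 in metacarpal III, metacarpal V and metatarsal I.

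**Figure D2:**
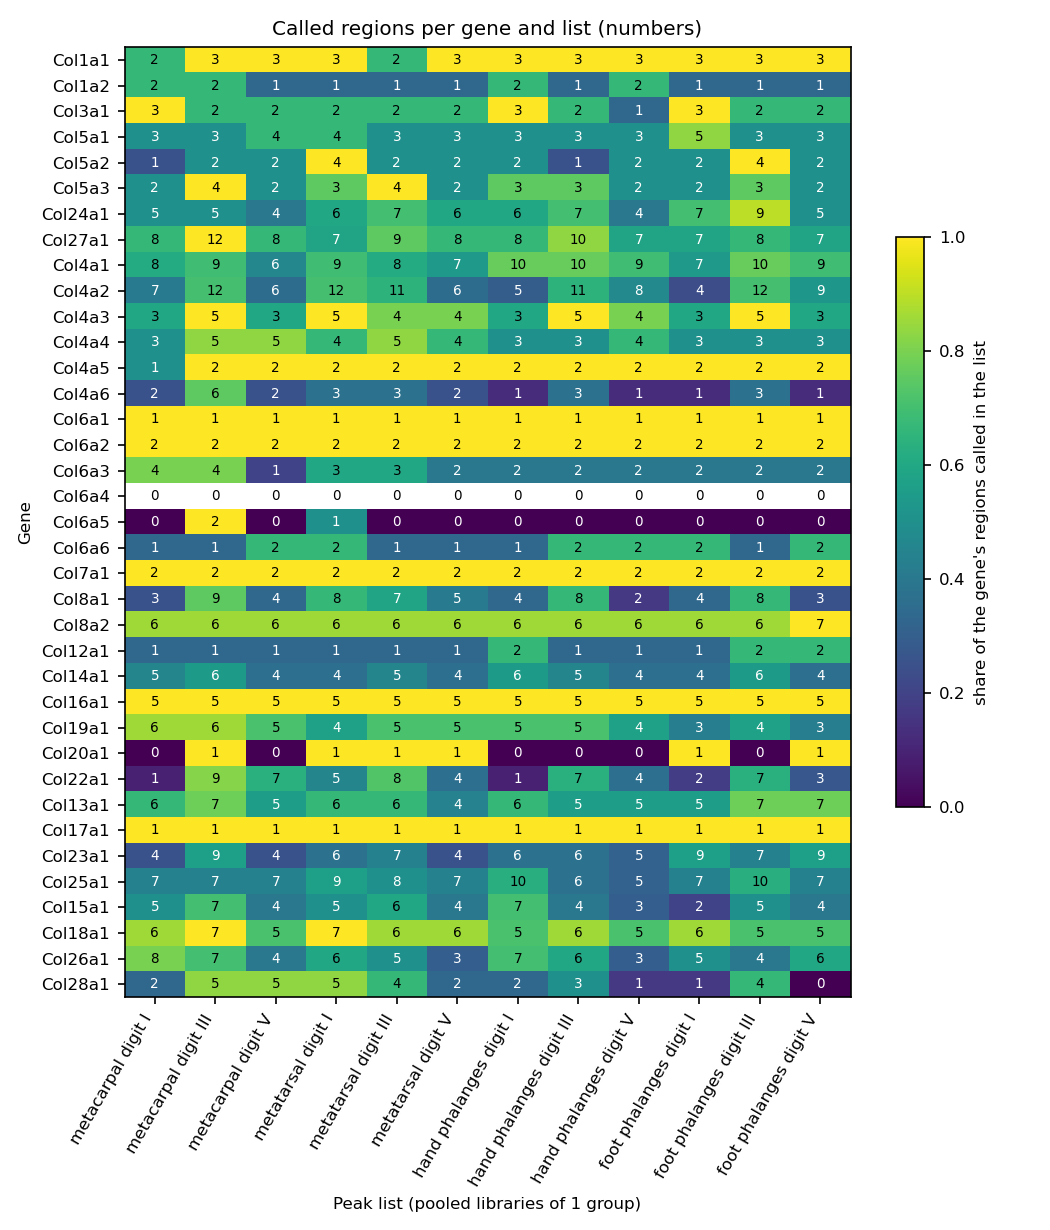
Called regions of each collagen (rows, numbers in cells) in each of the 12 peak lists (columns); colour gives the share of the gene's regions called, from 0 to 1. Col6a1, Col6a2, Col7a1, Col16a1 and Col17a1 have the same count in every list, while Col22a1 ranges from 1 to 9.

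Differences between limbs, elements and digits were tested per gene over the lists with an exact two-sided permutation test that exchanged list labels among lists matched for the other 2 factors. With limb or element labels exchanged it cannot give a p below 0.0312, and with digit labels none below 0.0123. A gene is said to pass at an unadjusted p of at most 0.05. No collagen had a Benjamini-Hochberg adjusted p under 0.05 over the 17568 genes, so each pass is read against the share of all genes that passed. The 37 collagens had a median of 6 regions a gene, against 2 for all 21887 genes, and a gene with few regions has less room to pass. The shares and median differences over all genes are not matched for this, and its part was not tested. Each list is the only one of its group, so the test uses the spread between groups, not between libraries.

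Between limbs, 1 of 36 collagens passed (of all genes 0.233% did, 0.188% higher and 0.0455% lower). It was Col24a1, with more called regions in the hindlimb. The hindlimb lists had 6, 7 and 6 regions in metatarsals I, III and V and 7, 9 and 5 in foot phalanges I, III and V. The forelimb lists had 5, 5 and 4 in metacarpals I, III and V and 6, 7 and 4 in hand phalanges I, III and V. Every hindlimb list was above its forelimb counterpart, although the 2 sets of values overlap. Mean counts of 6.67 ± 1.37 in the hindlimb and 5.17 ± 1.17 in the forelimb (SD over 6 lists each) give a difference of 1.5 (exact permutation p = 0.03125, adjusted p = 1.0). The region chr3:145319888-145321955, with its centre 28.4 kb inside the gene, was called in 6 of 6 hindlimb lists and 1 of 6 forelimb lists, that of hand phalanges III. With lists cut to equal length the difference was 1.33 and with the gene body alone 1.17, and the gene no longer passed (exact permutation p = 0.0625 for both). The lists of the hindlimb, at 36700 to 47375 peaks, overlapped those of the forelimb, at 36194 to 53276. Summed over their lists, epidermal markers had 4 to 7 regions in the hindlimb and 3 to 6 in the forelimb, and chondrocyte markers 20 to 24 and 19 to 30. Their part in the result was not tested. Over all 36 collagens, 14 had a higher mean in the hindlimb and 12 a lower one, with a median difference of 0, as for all genes.

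Between elements, 1 of 36 collagens passed (0.922% of all genes, 0.387% higher and 0.535% lower in phalanges). Col19a1, a FACIT collagen of vascular, neuronal and muscle basement membrane zones, had fewer called regions in phalanges. Metacarpals I, III and V had 6, 6 and 5 regions and metatarsals 4, 5 and 5. Hand phalanges I, III and V had 5, 5 and 4 and foot phalanges 3, 4 and 3. All 6 phalanx lists were below their metapodial counterparts. Mean counts of 4.0 ± 0.89 in phalanges and 5.17 ± 0.75 in metapodials (SD over 6 lists each) give a difference of -1.17 (exact permutation p = 0.03125, adjusted p = 1.0). The region chr1:24548762-24552723 was called in 5 of 6 metapodial lists and 0 of 6 phalanx lists. Of the 7 regions counted for Col19a1, 2 lie in the neighbouring cartilage gene Col9a1, and without the flanks that hold them the difference was -1 (exact permutation p = 0.0625). Endothelial markers had 14 to 19 regions in phalanges and 17 to 22 in metapodials, nerve markers 6 to 8 and 3 to 7. Their part was not tested.

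At the level of 1 region, a strict split was found once. The region chr8:11272888-11274626 inside Col4a1, centred 39.1 kb from the start shown above, was called in 6 of 6 phalanx lists and 0 of 6 metapodial lists. Of all regions, 0.119% split that way. With the more significant 50% of each list, or with peaks covering at least 50% of a region, 0 collagen regions split strictly. No other collagen region split limbs, elements or digits without exception; of all regions 0.0763% did so for the hindlimb, 0.0061% for the forelimb, 0.0915% for metapodials, 0.0061% for digit I, 0.117% for digit III and 0.00153% for digit V. Allowing 1 list to differ on each side, 5 of the 238 regions marked the hindlimb (0.861% of all regions), at Col5a2, Col8a1, Col20a1, Col24a1 and Col4a2, and 0 the forelimb (0.207%). Under the same relaxed rule 2 marked phalanges (1.05%), 3 metapodials (1.16%), 2 digit I (0.291%), 3 digit III (2.28%) and 0 digit V (0.0519%). Col4a1 held one of each kind for element, since chr8:11189948-11192218, beyond its far end, was called in 5 of 6 metapodial lists and 0 of 6 phalanx lists.

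**Figure D3:**
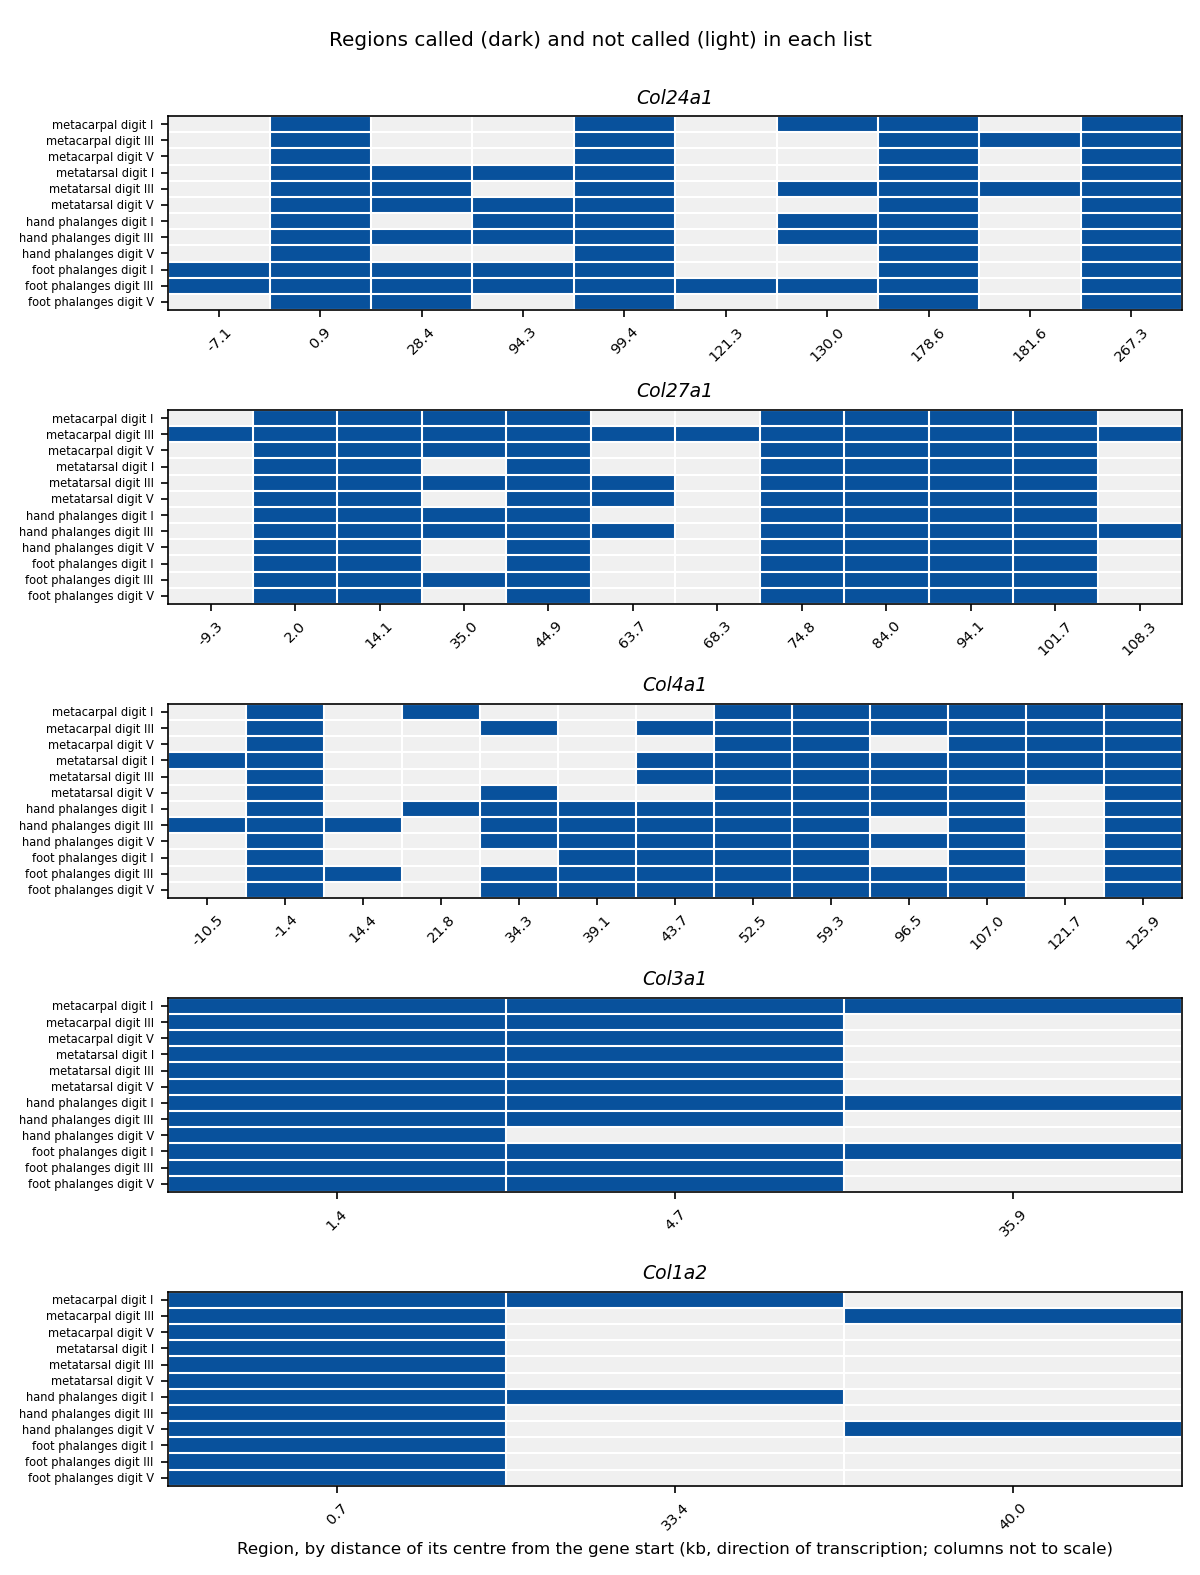
Calls of every region of 5 collagens in the 12 lists (rows); columns are regions ordered by the distance of their centre from the gene start in kb, not to scale. At Col24a1 the region at 28.4 kb was called in all hindlimb lists and 1 forelimb list, at Col4a1 the region at 39.1 kb in the 6 phalanx lists only, and at Col3a1 the region at 35.9 kb in 3 digit I lists.

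For digit I against digits III and V, 2 of 36 collagens passed (0.916% of all genes, 0.558% higher and 0.359% lower), in opposite directions. Col3a1, the type III collagen of early and elastic connective tissue, had 3 called regions in metacarpal I, hand phalanges I and foot phalanges I and 2 in metatarsal I. The lists of digits III and V had 2, except hand phalanges V with 1. The means were 2.75 ± 0.5 (SD, n = 4 lists) and 1.88 ± 0.35 (n = 8 lists), a difference of 0.88 (exact permutation p = 0.03704, adjusted p = 1.0). The third region, chr1:45345834-45349083, lies at the far end of the gene, centred 35.9 kb from the start, and was called in no list of digits III or V. With lists of equal length the difference was 0.875 (exact permutation p = 0.037). With the more significant 50% of each list it was -0.375 (exact permutation p = 0.667), and without metacarpal III and its partners 0.833 (exact permutation p = 0.111). Col22a1 had 1, 5, 1 and 2 regions in digit I of the metacarpal, metatarsal, hand and foot phalanges. It had 9, 8, 7 and 7 in digit III and 7, 4, 4 and 3 in digit V of the same elements. Digit I was below the mean of digits III and V in 4 of 4 elements, with a difference of -3.88 (2.25 ± 1.89, n = 4, and 6.12 ± 2.17, n = 8; exact permutation p = 0.04938, adjusted p = 1.0). The difference was -0.625 in the more significant 50% of each list (exact permutation p = 0.407) and -2.83 without metacarpal III and its partners (exact permutation p = 0.148), so the call ended under both. In metatarsals, digit V at 4 was below digit I at 5. Blood and macrophage markers had 7 to 10 regions in digit I and 6 to 8 in the other digits, and muscle markers 6 to 10 in both. Their part was not tested.

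For digit III, 8 of 36 collagens passed (5.71% of all genes), all with more called regions, among 5.69% of all genes that were higher and 0.0228% that were lower. The 8 were Col22a1, Col4a2, Col8a1, Col27a1, Col4a6, Col24a1, Col4a3 and Col5a3. They belong to 4 of the 9 classes: fibrillar, basement membrane, short-chain and FACIT. The median difference was 0.38 regions over the 36 collagens and 0 over all genes. The digit III lists are the longer lists, so list length stands beside these values, as does the larger number of regions a collagen gene has. In the digit III lists 143 to 173 collagen regions were called and in the others 111 to 150, which is 34.3 to 35.6 and 32.2 to 36.0 for every 10000 called regions.

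**Figure D4:**
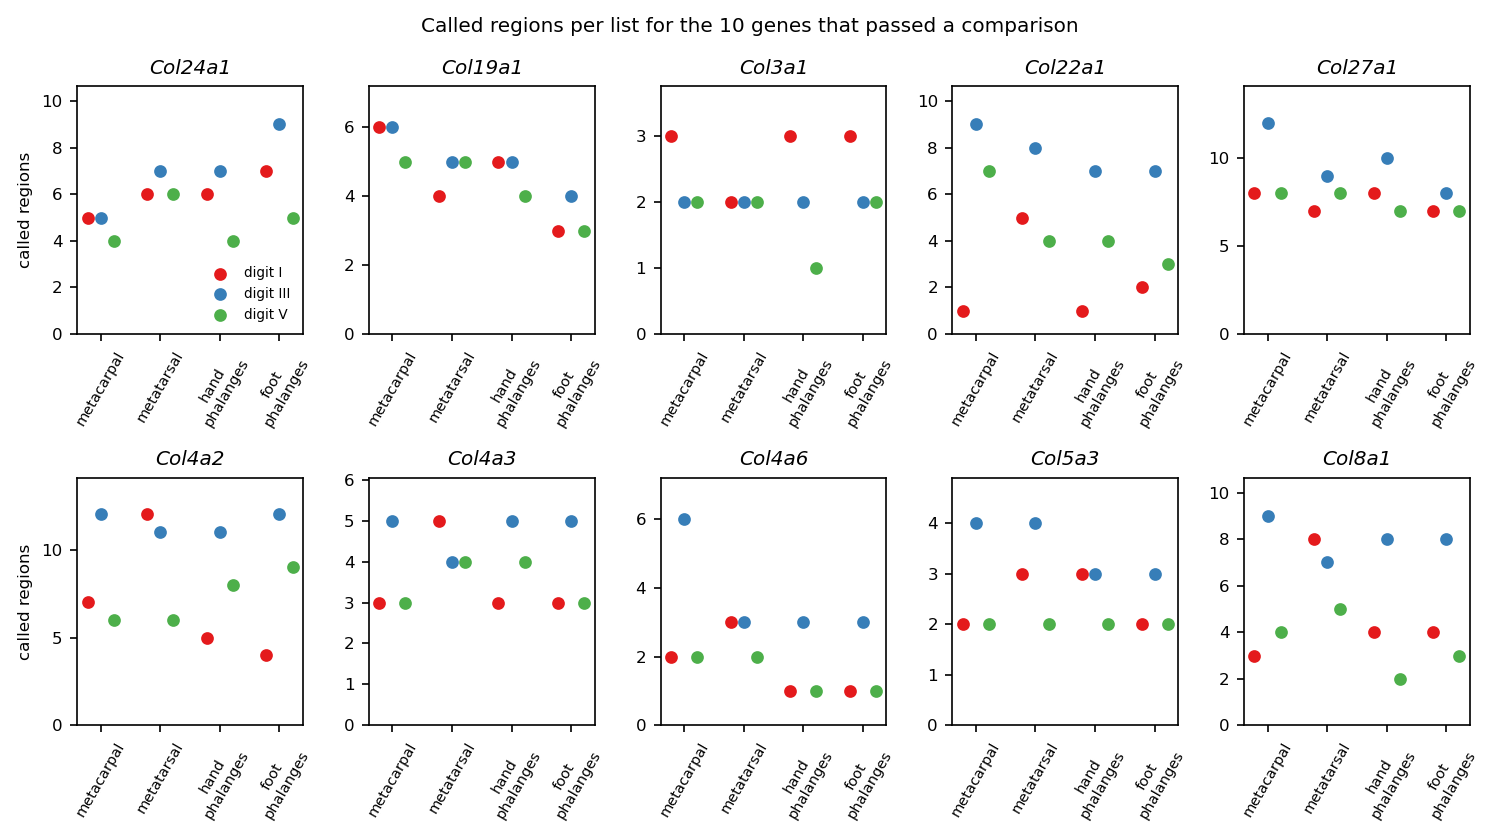
Called regions per list (vertical axis) for the 10 collagens that passed at least 1 comparison, by element (horizontal axis) and digit (colour); each point is 1 peak list. For Col22a1, Col27a1, Col24a1, Col4a6 and Col5a3 no other digit exceeds digit III within an element, while for Col4a2, Col4a3 and Col8a1 metatarsal I exceeds metatarsal III.

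Col22a1 and Col4a2 had the same difference. For Col22a1, digit III had 7.75 ± 0.96 regions (SD, n = 4 lists) and digits I and V 3.38 ± 2.07 (n = 8), a difference of 4.38 (exact permutation p = 0.01235, adjusted p = 0.7394). Digit III was the highest in each of the 4 elements. Of its 11 regions, 5 were called in all 4 digit III lists; chr15:72025092-72027150 and chr15:72028769-72030921 were in addition called in only 1 list each of digits I and V. With lists of equal length the difference was 2.88 (exact permutation p = 0.037). Col27a1 had 12, 9, 10 and 8 regions in digit III of the metacarpal, metatarsal, hand and foot phalanges, against 8, 7, 8 and 7 in digit I and 8, 8, 7 and 7 in digit V. The difference was 2.25 (9.75 ± 1.71 and 7.5 ± 0.53; exact permutation p = 0.01235, adjusted p = 0.7394), and with equal length it was 0.375 (exact permutation p = 0.667).

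Col4a2 had 12, 11, 11 and 12 regions in digit III. It had 7, 12, 5 and 4 in digit I and 6, 6, 8 and 9 in digit V, so metatarsal I was as high as digit III. The difference was 4.38 (exact permutation p = 0.04938, adjusted p = 0.8641). Col8a1 had 9, 7, 8 and 8 in digit III, 3, 8, 4 and 4 in digit I and 4, 5, 2 and 3 in digit V, a difference of 3.88 (exact permutation p = 0.02469, adjusted p = 0.7394). Col4a6 had 6, 3, 3 and 3 in digit III and 1 to 3 elsewhere, a difference of 2.12 with the same p. Col24a1 had 5, 7, 7 and 9, a difference of 1.62, and Col4a3 5, 4, 5 and 5, a difference of 1.25 (exact permutation p = 0.04938 for both). Col5a3, the least abundant chain of type V collagen, had 4, 4, 3 and 3, a difference of 1.25 (exact permutation p = 0.02469). For all 8 genes the groups overlap or touch.

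When each list was cut to its 36194 most significant peaks, 3 of the collagens passed (1.51% of all genes): Col22a1 was higher in digit III, and Col1a1 and Col6a6 were lower, with differences of -0.88 and -1.0. The cut lists were merged anew, which can split a region. Col1a1 then had 4 regions in metatarsal V, foot phalanges I and foot phalanges V, against at most 3 in a list as deposited. Its difference thus rests in part on the new merging. Of the 37 genes, 23 had a higher mean in digit III with the lists as deposited and 6 a lower one, against 12 and 19 at equal length. Of all genes with a region, 47.7% were higher and 13.2% lower with the lists as deposited. The corresponding shares at equal length were not counted. Without metacarpal III, the longest list, and its partners of digits I and V, 2 of the 8 passed, Col27a1 at a difference of 1.67 and Col22a1 at 4.17 (exact permutation p = 0.037 for both, the smallest that 3 elements allow). The share of all genes passing without these lists is not given here. Chondrocyte markers had 23 to 30 regions in digit III and 19 to 24 in the other digits, and perichondrium and osteoblast markers 23 to 26 and 18 to 23. Their part was not tested.

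**Figure D5:**
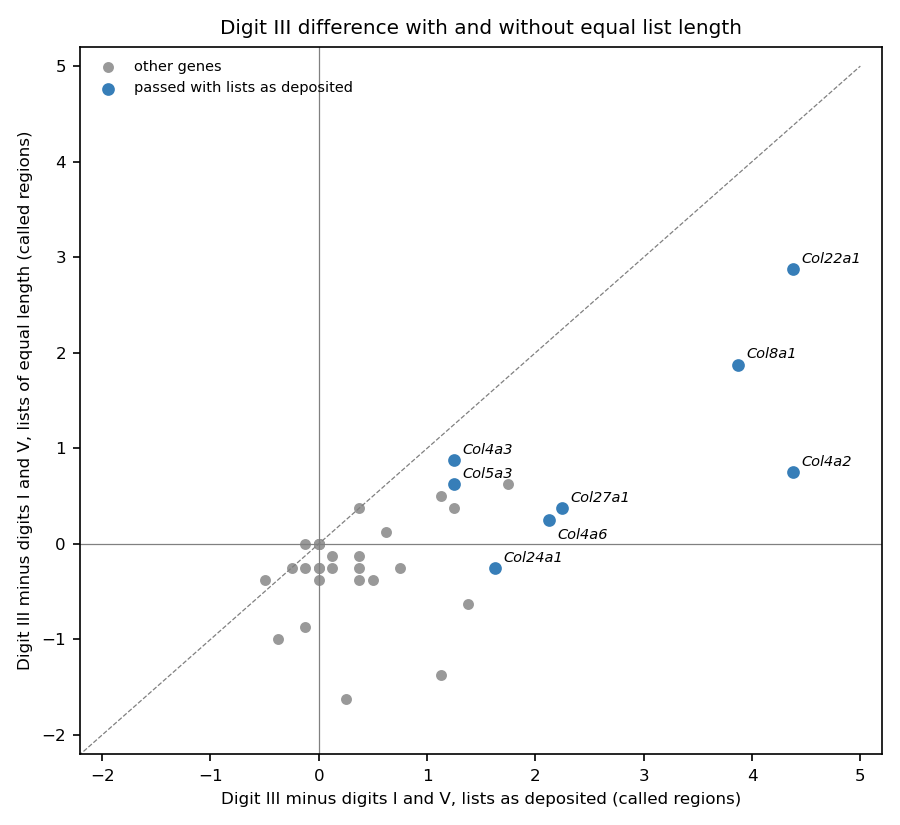
Difference in called regions, digit III minus digits I and V, for each of the 37 collagens with the lists as deposited (horizontal axis) and with all lists cut to 36194 peaks (vertical axis); the dashed line marks equality. All 8 genes that passed lie below the line, Col22a1 at 4.38 and 2.88 and Col24a1 at 1.62 and -0.25.

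For digit V, 1 of 36 collagens passed (1.45% of all genes, 0.0569% higher and 1.39% lower). Col24a1 had 4, 6, 4 and 5 regions in digit V of the metacarpal, metatarsal, hand and foot phalanges, with 4.75 ± 0.96 (SD, n = 4 lists), against 6.5 ± 1.31 (n = 8) in digits I and III. Digit V was lower in 4 of 4 elements, by a difference of -1.75 (exact permutation p = 0.02469, adjusted p = 1.0), and at equal list length the difference was -0.625 (exact permutation p = 0.309). Over the collagens the median difference was -0.56, with 5 above 0 and 24 below, while 49.6% of all genes were below. The 3 digit comparisons share lists, so their results for Col24a1 and Col22a1 are not independent of each other.

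The genes that make, bind and cut collagen were counted in the same way. Of 33 genes of biosynthesis and processing, all had a region, and 61 of their 136 regions (44.9%) were called in all lists. None passed between limbs (0.233% of all genes did), 1 passed between elements (0.922%), 1 for digit I (0.916%), 5 for digit III (5.71%) and 1 for digit V (1.45%). Plod2, the lysyl hydroxylase of collagen telopeptides, was lower in phalanges (3.0 ± 1.9 against 5.17 ± 2.48, n = 6 lists each, exact permutation p = 0.03125) and higher in digit III (6.25 ± 1.89, n = 4, against 3.0 ± 1.85, n = 8, exact permutation p = 0.01235). P4hb, a subunit of prolyl 4-hydroxylase, was higher in digit I (3.0 ± 0.82 against 2.0 ± 0.0, exact permutation p = 0.03704). The other genes higher in digit III were P3h2, a prolyl 3-hydroxylase, Tll1 and Adamts3, which trim procollagen, and Loxl2, a crosslinking enzyme. Pcolce2, an enhancer of procollagen trimming, was lower in digit V (1.75 ± 0.5 against 3.25 ± 0.71, exact permutation p = 0.03704). Of 7 receptors, Itga1 and Ddr2 were higher in digit III, against 5.69% of all genes, and of 8 cleaving enzymes 6 had a region and 0 passed any of the 5 comparisons. Of the 7 cartilage collagens, Col9a1 passed, in digit III (10.25 ± 1.26 against 7.88 ± 1.89, exact permutation p = 0.03704). With lists of equal length, the digit III calls of these lists were Tll1 and Ddr2 higher and Itga11 lower (1.51% of all genes passed). None of these genes had an adjusted p under 0.05 with the lists as deposited.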

How the data were processed

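ATAC-seq peak lists, 1 for each of 12 groups of 3 libraries (36 in all), were analysed. Reads had been handled with MACS3, Picard 2.9.0 and Bowtie2 2.3.4.1 on mm10, per the submitters' processing notes, which give no role for each. Trimming, deduplication and shifts to cut sites were not given in the sources used here. Such a shift changes peak borders only slightly. Peak names in the deposited lists state that libraries were pooled, so no error between libraries can be had, and depth is unknown. The lists are labelled IDR p0.05, and the part of this filter in their length was not tested. Each list holds, as deposited by the authors, positions, an integer score, fold enrichment over background (a linear ratio), and −log10 p-values and −log10 q-values. The score was not used; fold and −log10 p-value, which are the authors' own, served to describe and rank peaks within a list. Several peaks in 1 place of a list were counted as 1 region.

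Peaks of the 12 lists were merged at 1 bp overlap, and regions were assigned to RefSeq gene bodies with 10 kb flanks. Limb, element and digit were compared by the exact two-sided permutation test described with the results (64 labellings for limb and element, 81 for a digit), with Benjamini-Hochberg adjustment over 17568 genes. The test was tried on simulated counts in which an unchanged gene had the same rate in every list. List length did not differ there, so the trial does not cover its effect on the digit comparisons. Python 3.11.15, numpy 2.4.6, pandas 2.3.3 and matplotlib 3.10.9 were used. Genes named with values were those that passed a comparison, the gene of each class with the most regions, the genes with no region and 16 landmark genes. The members, gene lists and tests were chosen with earlier results of these data known. A planned measure of glycine triplets in proteins was not made here, and motifs were searched in the 250 bases before the start only, not in the 50 after it. Alternatives covered list length, stronger peaks, 500-bp summit windows, region cover, flanks, base pairs covered and left-out elements. Shortened lists and summit windows were merged anew, so their regions need not be those of the full lists.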

Additional observations from a re-analysis of the deposited data

Results flagged for a closer look

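Among the genes and comparisons that passed, 4 groups of lists had 1 list apart from all the others, which shared 1 value; other genes were not screened here. Col3a1 had 2 called regions in metatarsal I and 3 in the other 3 digit I lists. Col3a1 had 1 called region in hand phalanges V and 2 in the other 7 lists of digits III and V. Col4a3 had 4 called regions in metatarsal III and 5 in the other 3 digit III lists. Col4a6 had 6 called regions in metacarpal III, the longest list, and 3 in the other 3 digit III lists. These are small whole numbers, in which a step of 1 is enough to set a list apart, and at the critical value used chance nominally sets apart about 1 in 20 groups of continuous values.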

How the results depend on the processing

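No paired analysis was possible because the libraries of each group were pooled into 1 list and replicate numbers are not separate there. Each list is the only one of its group, and depth is unknown.

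The number of collagens passing between limbs was 1. It was 0 with lists of equal length, with the more significant 50% of each list, with peaks covering at least 50% of a region and with the gene body alone, and 2 with 50 kb flanks. Between elements it was 1, with 0 in the more significant 50%, at 50% cover, in the gene body alone and with 50 kb flanks, 2 in 500-bp summit windows and 3 by base pairs covered. For digit I it was 2, with 0 in the more significant 50% and 0 without metacarpal III and its partners; leaving out 1 element at a time gave 0 to 2. For digit III it was 8, with 3 at equal length, 5 in the more significant 50% and 2 without metacarpal III and its partners. Leaving out 1 element at a time gave 1 to 5. Of the 3 at equal length only Col22a1 was among the 8, while Col1a1 and Col6a6 passed as lower in digit III. All these counts take passes in either direction and need not be of the same genes. Apart from digit III at equal length, the share of all genes passing under each alternative is not given here. The counts therefore show how the calls moved and are not read against a background. For digit V it was 1, with 0 at equal length and 0 without metacarpal III; leaving out 1 element at a time gave 0 to 2. For limb and element, 5 remaining pairs cannot pass, since the smallest p is then 0.0625. Col3a1 in digit I reversed to -0.375 in the more significant 50% (exact permutation p = 0.667), and Col24a1 in digit III to -0.25 at equal length (exact permutation p = 0.802). Regions called in all lists numbered 77, against 33 in the more significant 50%, 29 at 50% cover and 134 with 50 kb flanks. Regions called in 1 list numbered 40, against 14 in the more significant 50% and 61 with 50 kb flanks. Genes with a start or end region in all lists numbered 29, against 18 in the more significant 50% and 15 at 50% cover. Strictly separating regions numbered 1, against 0 in both of these and 15 with the relaxed rule. The causes were not tested.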

Other observations

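A pattern seen at collagens was then counted over all genes, so it was chosen after its values were seen. At Col1a2 the region chr6:4536644-4541476, which lies at the far end of the gene, was called in metacarpal I and hand phalanges I and in no other list. The far-end region of Col3a1 was called in those 2 lists and in foot phalanges I. The cartilage gene Col9a1 had a far-end region, chr1:24250835-24252649, in the same 2 lists only. Other far-end regions of collagens did not have this pattern, though collagens without a matched start were not searched for such regions. A second one of Col9a1, chr1:24248391-24250103, was called in 9 lists, and those of Col4a4 and Col8a2 in all 12. Those of Col5a1, Col6a5, Col13a1 and Col9a2 were called in 1 or 2 lists, never in both lists of the pattern. The pattern was not confined to far ends. Regions inside Col4a1, Col14a1 and Col15a1, away from the gene ends, were also called in metacarpal I and hand phalanges I only. Of all regions, 92 were called in exactly these 2 lists, and 14 of them (15.2%) lay in the last 3 kb of a gene. The share was 2.54% of the 5838 regions called in any 2 lists and 2.74% of all regions. Single pairs of lists lay on both sides of 2.54%, many of them with few regions. Hand phalanges V with foot phalanges I, and metacarpal III with hand phalanges V, were above it, with 4 far-end regions each. Metatarsal III with hand phalanges V exceeded 15.2%, at 1 of 3 regions. A high share is thus not particular to metacarpal I and hand phalanges I. Besides Col1a2 and Col9a1, the 14 regions lay at H3f3a, Igfbp4, Coa8, Hnrnpk, Fstl1, Srsf3, Tctn3, Hnrnpa2b1, Cnbp, Igf2, Maged1 and Morf4l2. Fstl1 and Igf2 encode secreted proteins and Hnrnpk and Srsf3 proteins that bind RNA. Of 56 regions called in 3 or 4 digit I lists and in no other, 6 (10.7%) lay in the last 3 kb, P4hb and Col3a1 among them, while for digit III it was 14 of 458 (3.06%). The weakest peak kept in metacarpal I and hand phalanges I had a −log10 p of 49.63 and 48.45, against 23.02 to 41.53 in the other 10 lists. The part of these thresholds in the pattern was not tested.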
